A study of Homo sapiens with 3 samples.

Results

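The genes described here are 48 genes of the interferon response and of antigen presentation, among 19974 protein-coding genes on chromosomes 1 to 22 and X. The list was set by symbol and not by a cut on measured values, but it was chosen with earlier results of these data known. All 48 matched a symbol in the NCBI RefSeq gene table of GRCh38.p14. For each gene the deposited peaks were read within 1 kb of either end of the gene, here called gene-end peaks, and over the gene span. The peaks come from CUT&Tag, in which an antibody guides a transposase to cut and tag nearby DNA, in A2780, an established human ovarian carcinoma cell line. Each of 3 groups had 1 library. BPP profiled acetylation of histone H3 at lysine 27 (H3K27ac) in cells given BPP, a peptide that by the series design competes at the phosphorylation site of the protein BIN2. The CTR library used the same antibody target in control cells, and the IgG library used a non-specific antibody to measure background. The sources used here do not give the treatment of the CTR and IgG cells, the peptide dose or the time of exposure. All libraries came from 1 cell line whose cells had been frozen and thawed. No group had a second library, so no difference between libraries had a replicate check and none was tested.

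H3K27ac marks active promoters and enhancers. Type I interferons bind IFNAR1 and IFNAR2 and interferon gamma binds IFNGR1 and IFNGR2, and the kinases bound to these receptors, JAK1, JAK2 and TYK2, then phosphorylate STAT proteins. STAT2 and IRF9 take part in the factor that binds the interferon-stimulated response element (ISRE) in promoters of interferon-stimulated genes. Among the targets are antiviral effectors and the machinery that loads peptides on MHC class I, which carcinoma cells can lose and which makes them visible to T cells. Cytosolic RNA and DNA sensors, such as RIGI, IFIH1 and CGAS, act upstream and induce interferon.

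In BPP, 24 of the 48 genes had a gene-end peak (50%, 95% Wilson interval 36.4 to 63.6). In CTR the number was 23 (47.9%, interval 34.5 to 61.7). Across all protein-coding genes the shares were 30.6% in BPP and 31.2% in CTR. In IgG none of the 48 had a gene-end peak, where a limit of 3 counts in 48 allows a share of up to 6.25% and the 95% Wilson interval reaches 7.41%, against 2.13% of all protein-coding genes. Both H3K27ac lists marked 18 of the 48 (37.5%; 23.6% of all genes), BPP alone 6 (12.5%; 7.03%), CTR alone 5 (10.4%; 7.57%) and neither list 19 (39.6%; 61.8%). Among the 29 marked genes, 62.1% were marked in both lists, next to 61.7% of the 7628 marked protein-coding genes, so the division between the libraries lay near the background. With the 5000 highest-ranking peaks of each list, the count for BPP alone was 0, and without peaks that reach the window of another gene it was 3. The share of all protein-coding genes was not counted under these settings. The Wilson intervals here cover counting error only and treat genes as independent, although neighbouring genes can share a peak.

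Peaks over the gene span were listed for 22 of the 48 genes in BPP, 25 in CTR and 3 in IgG, or 45.8%, 52.1% and 6.25%, where all protein-coding genes gave 40.4%, 38.5% and 13.9%. The genes with IgG peaks were STAT3, JAK1 and JAK2, and their IgG peaks lay inside the gene, overlapped no H3K27ac peak. Of the 28 BPP peaks and 24 CTR peaks at the ends of these genes, none overlapped an IgG peak. Such overlap was rare in the whole lists too, where 17516 of 17841 BPP peaks and 14492 of 14836 CTR peaks had none. By place, 19 of the 28 BPP peaks were overlapped by a CTR peak (67.9%, 49.3 to 82.1) and 18 of the 24 CTR peaks by a BPP peak (75.0%, 55.1 to 88.0). For all gene-end peaks these shares were 69.9% and 69.6%.

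Fold and −log10 q are the authors' own values for each peak and rank peaks within 1 list; the background of the fold and the number of reads were not given, so values of the 2 lists stand side by side with no change read from them. The gene-end peaks of these genes were of middling strength. Their −log10 q ranged from 2.97 to 23 in BPP, with a median of 7.35, where all gene-end peaks of that list had a median of 9.15. In CTR the range was 4.32 to 22.1 and the median 8.68, next to 9.10 for all gene-end peaks. Median folds were 4.12 in BPP and 4.72 in CTR, next to 4.89 and 5.16 for all gene-end peaks. Of the 8 genes with the highest −log10 q in each list, 6 were the same in both (IFIT3, IFNAR1, JAK2, TAP1, TAP2 and TAPBP); the others were B2M and HLA-C in BPP and IFIT5 and ADAR in CTR. Peaks overlapped by the other list had a median −log10 q of 8.60 in BPP and 12.04 in CTR, and those not overlapped 6.29 and 6.75.

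**Figure D1:**
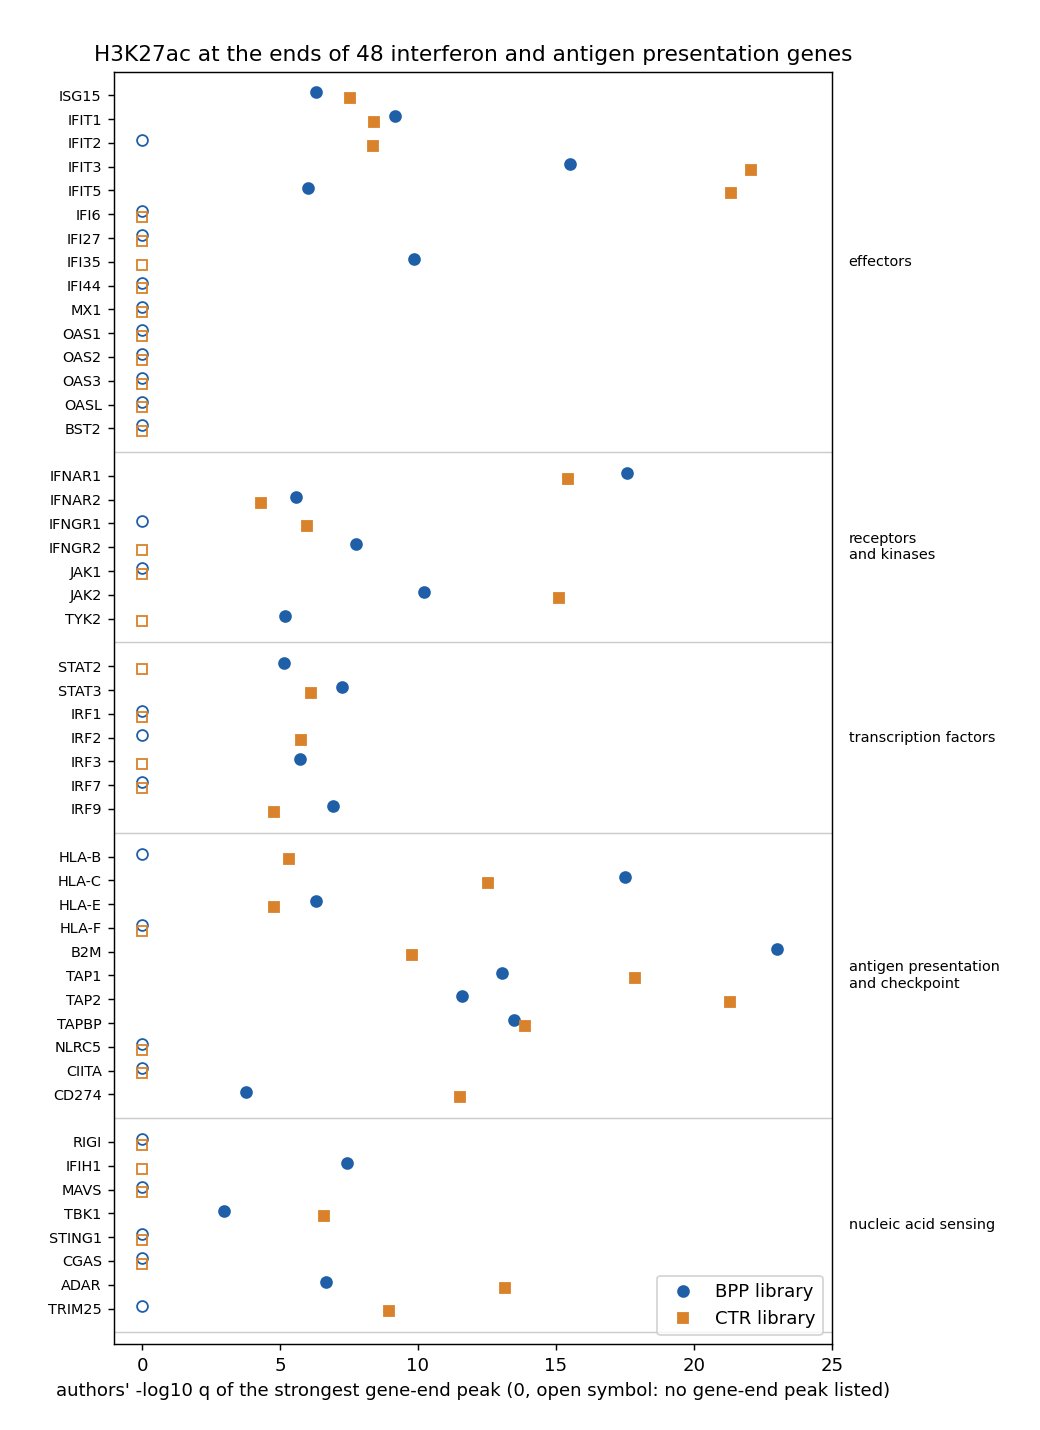
Each row is a gene, grouped by role; circles (BPP) and squares (CTR) give the authors' −log10 q of its strongest gene-end peak, and open symbols at 0 mean that no gene-end peak was listed. B2M has the highest BPP value (23) and IFIT3 the highest CTR value (22.1), and 19 genes have open symbols for both libraries.

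Effectors are the products that act on viruses. Of 15 effector genes, 4 had gene-end peaks in both lists (ISG15, IFIT1, IFIT3 and IFIT5), IFI35 in BPP only, IFIT2 in CTR only, and 9 in neither: IFI6, IFI27, IFI44, MX1, OAS1, OAS2, OAS3, OASL and BST2. The share was 33.3% in each list (15.2 to 58.3), close to that of all protein-coding genes. The 9 unmarked genes also had no H3K27ac peak over their spans.

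The IFIT proteins bind viral RNA and block its translation, and their genes lie in a cluster on chromosome 10. IFIT3 held the CTR gene-end peak with the highest −log10 q among the 48 genes (chr10:89327809-89328476; fold 5.72, −log10 q 22.1, within the top 7.56% of the CTR list). Its BPP peak (chr10:89327819-89328382; fold 4.60, −log10 q 15.5) lay wholly inside the CTR peak, and both covered the start site. At IFIT1 the BPP peak (chr10:89392605-89393463; fold 4.86, −log10 q 9.17) was likewise contained in the CTR peak (chr10:89392343-89393560; fold 4.81, −log10 q 8.40). IFIT5 was covered differently in the lists. CTR had 1 wide peak across its start (chr10:89414316-89415327; fold 5.35, −log10 q 21.3). BPP had a weaker peak on each side of the start, at chr10:89414048-89414480 (fold 3.04, −log10 q 5.17) and chr10:89414803-89415327 (fold 3.24, −log10 q 6.01), and both overlapped the CTR peak. These peaks also lay within 1 kb of an end of LIPA, a lysosomal lipase gene. IFIT2 had a CTR peak near its lower-coordinate end (chr10:89302103-89303327; fold 3.86, −log10 q 8.38), and the nearest BPP peak was 3823 bp from it.

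ISG15, a ubiquitin-like protein that is conjugated to other proteins, is counted as marked in both lists although its peaks did not overlap. The CTR peak covered the start (chr1:1013192-1014107; fold 4.19, −log10 q 7.52). The BPP peak covered the far end of this short gene (chr1:1014132-1015488; fold 3.46, −log10 q 6.29) and began 25 bp beyond the CTR peak. IFI35, a cytoplasmic protein induced by interferon, had 2 BPP peaks, both on the far side of the gene and none at its start. They lay at chr17:43013306-43014041 (fold 3.50, −log10 q 9.87) and chr17:43015282-43015657 (fold 2.70, −log10 q 5.06), within 1 kb of an end of the neighbouring gene VAT1, and the nearest CTR peak was 12649 bp away.

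The unmarked effectors were not close to H3K27ac peaks, apart from OASL. For OAS1, OAS2 and OAS3, neighbouring genes of the synthetases that activate the RNA-degrading enzyme RNase L, the nearest BPP peaks lay 251.5, 173.0 and 211.5 kb away and the nearest CTR peaks 230.3, 151.7 and 190.2 kb away. MX1, a GTPase that blocks viral replication, was 197.5 kb from a BPP peak and 171.2 kb from a CTR peak. IFI44 was 644.7 kb from a BPP peak and 29.8 kb from a CTR peak. IFI6 lay 52.9 and 53.02 kb away, IFI27 24.6 and 24.3 kb, and BST2, a membrane protein that tethers budding virus, 18.04 and 14.4 kb. OASL lay just outside the window, with a BPP peak at 1.34 kb and a CTR peak at 1.30 kb from the gene. Just inside it was IRF3, whose BPP peak began 0.942 kb beyond the gene.

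Promoter sequences of effectors are shown because the marked and the unmarked genes carry the same type of element. Each line gives the 150 bases before the outermost start of the RefSeq promoter table (GRCh38.p14), 5′ to 3′ on the gene's strand. Capitals mark matches to the ISRE-type pattern GAAA, any 2 bases, GAAA, on either strand (TTTC, any 2 bases, TTTC on the printed strand). The first 4 genes had H3K27ac peaks within 1 kb of the start in both lists and the last 4 in neither. A further match at IFIT5 runs past the start and is not capitalised.
ISG15: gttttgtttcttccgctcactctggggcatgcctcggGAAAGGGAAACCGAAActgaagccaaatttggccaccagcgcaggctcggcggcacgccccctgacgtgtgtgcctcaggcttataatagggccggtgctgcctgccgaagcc
IFIT1: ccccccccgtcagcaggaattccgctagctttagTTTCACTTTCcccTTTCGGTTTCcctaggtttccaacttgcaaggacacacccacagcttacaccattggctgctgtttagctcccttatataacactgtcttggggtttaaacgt
IFIT3: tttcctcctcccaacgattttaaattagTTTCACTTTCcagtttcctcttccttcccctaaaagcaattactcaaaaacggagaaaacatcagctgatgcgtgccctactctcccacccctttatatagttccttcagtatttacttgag
IFIT5: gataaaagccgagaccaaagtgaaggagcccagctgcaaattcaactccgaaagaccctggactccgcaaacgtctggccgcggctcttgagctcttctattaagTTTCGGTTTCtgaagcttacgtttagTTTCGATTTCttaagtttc
IFI6: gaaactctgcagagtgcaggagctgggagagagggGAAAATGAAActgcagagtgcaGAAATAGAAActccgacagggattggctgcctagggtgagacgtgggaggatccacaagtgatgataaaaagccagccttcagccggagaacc
IFI44: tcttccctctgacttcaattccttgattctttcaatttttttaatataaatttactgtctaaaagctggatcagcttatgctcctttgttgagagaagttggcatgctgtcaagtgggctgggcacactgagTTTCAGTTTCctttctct
BST2: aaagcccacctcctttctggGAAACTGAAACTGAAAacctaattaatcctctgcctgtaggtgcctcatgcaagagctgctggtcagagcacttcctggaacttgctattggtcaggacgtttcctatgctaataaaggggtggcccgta
OAS3: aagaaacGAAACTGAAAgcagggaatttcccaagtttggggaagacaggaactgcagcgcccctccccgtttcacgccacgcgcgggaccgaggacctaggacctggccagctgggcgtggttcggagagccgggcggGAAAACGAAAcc
These windows lie at chr1:1013347-1013496 (ISG15), chr10:89392473-89392622 (IFIT1), chr10:89327847-89327996 (IFIT3) and chr10:89414418-89414567 (IFIT5) on the plus strand. On the same strand lie chr1:78649639-78649788 (IFI44) and chr12:112938324-112938473 (OAS3), and on the minus strand chr1:27672193-27672342 (IFI6) and chr19:17405631-17405780 (BST2). Counted from the start, the first capitals begin at position -113 in ISG15, -116 in IFIT1, -122 in IFIT3 and -45 in IFIT5. In IFI6, IFI44, BST2 and OAS3 they begin at -115, -18, -130 and -143. The printed genes were picked for a match, so by that choice promoters with and without a peak both held the pattern.

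Receptors and their kinases were marked in 5 of 7 genes in BPP (71.4%, 35.9 to 91.8) and 4 in CTR (57.1%, 25.05 to 84.2). The shares of all protein-coding genes were 30.6% and 31.2%, and the CTR interval includes the latter. Both lists marked 3 of the 7 (42.9%, 15.8 to 75.0), next to 23.6% of all genes. Of 7 genes, IFNAR1, IFNAR2 and JAK2 had gene-end peaks in both lists, IFNGR2 and TYK2 in BPP only, IFNGR1 in CTR only and JAK1 in neither. IFNAR1, a chain of the type I interferon receptor, carried the highest gene-end fold of the 48 genes in each list. Its BPP peak (chr21:33324385-33325336) had fold 8.0 and −log10 q 17.6, and its CTR peak (chr21:33324411-33325354) fold 8.18 and −log10 q 15.4. The summits of these peaks fell at the same distance, 245 bp, inside the gene. IFNAR2, the partner chain, had weaker peaks near its lower-coordinate end, at chr21:33230509-33231138 in BPP (fold 5.26, −log10 q 5.57) and chr21:33230347-33230741 in CTR (fold 4.63, −log10 q 4.32), and these overlapped by 233 bp. The IFNAR2-IL10RB read-through gene shares that window.

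The interferon gamma receptor genes were marked in different lists. IFNGR1, the ligand-binding chain, had a CTR peak at its start (chr6:137219029-137219384; fold 5.59, −log10 q 5.99) while the nearest BPP peak was 906.6 kb from the gene. IFNGR2, the second chain, had a BPP peak (chr21:33403777-33404627; fold 3.97, −log10 q 7.76). In CTR it had a peak inside the gene instead, 20856 bp from the BPP peak (chr21:33425483-33425932; fold 3.63, −log10 q 3.28). TYK2, a kinase of the type I receptor, had a BPP peak just before its start (chr19:10380835-10381128; fold 4.33, −log10 q 5.20) and another inside (chr19:10352795-10353755; fold 3.54, −log10 q 5.23), and the nearest CTR peak was 16.7 kb from the gene.

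JAK2 and JAK1 differed from each other in both libraries. At JAK2 the BPP peak (chr9:4984395-4984727; fold 5.03, −log10 q 10.2) and the CTR peak (chr9:4984401-4985600; fold 5.57, −log10 q 15.1) overlapped just inside the start. JAK2 also had 1 BPP and 3 CTR peaks inside the gene, with −log10 q of 3.47 to 5.60, and 3 IgG peaks, the strongest at chr9:5100225-5100937 (fold 8.31, −log10 q 8.60). JAK1, the kinase shared by both receptor types, had no gene-end peak and the BPP peak nearest to its 234.5 kb span was 87.2 kb away. Its 2 CTR peaks lay inside the gene (chr1:64862648-64863045, fold 3.76, −log10 q 3.69, and chr1:65011877-65012223, fold 5.08, −log10 q 4.71), as did its IgG peak (chr1:64928239-64928771; fold 4.00, −log10 q 2.23).

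**Figure D2:**
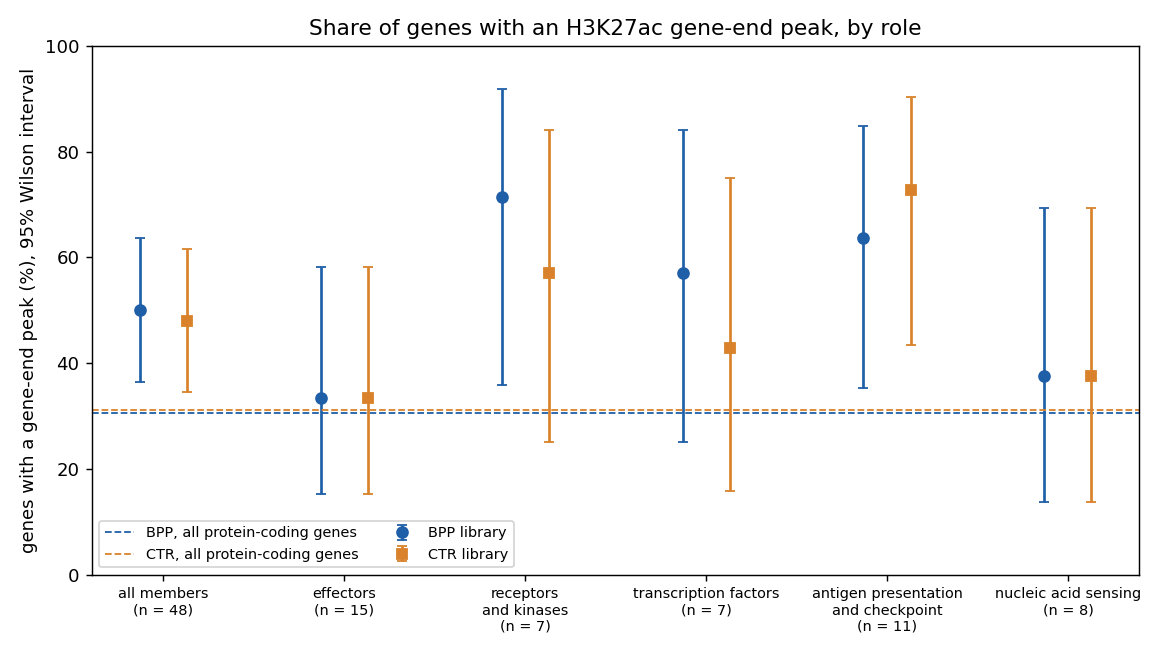
Points give the share of genes with a gene-end peak in each H3K27ac library, with 95% Wilson intervals for counting error; dashed lines give the share of all protein-coding genes (30.6% BPP, 31.2% CTR). Antigen presentation genes stand highest in CTR (72.7%) and receptors and kinases highest in BPP (71.4%), while effectors sit at 33.3% in both.

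Among 7 transcription factor genes, STAT3 and IRF9 were marked in both lists, STAT2 and IRF3 in BPP only, IRF2 in CTR only, and IRF1 and IRF7 in neither. This was 57.1% in BPP (25.05 to 84.2) and 42.9% in CTR (15.8 to 75.0), next to 30.6% and 31.2% of all protein-coding genes. The share marked in both lists, 28.6% (8.22 to 64.1), lay near the 23.6% of all genes. The peaks were modest, with −log10 q from 4.77 to 7.24. STAT3, which acts mainly downstream of IL-6-type cytokines, had a BPP peak just before its start (chr17:42388501-42389080; fold 4.28, −log10 q 7.24) and a CTR peak across it (chr17:42388256-42388763; fold 4.17, −log10 q 6.14). An IgG peak lay inside STAT3 (chr17:42383708-42384031; fold 5.53, −log10 q 3.82), 4225 bp from the nearest H3K27ac peak. At IRF9, the DNA-binding part of the ISRE-binding factor, the BPP peak (chr14:24160954-24161311; fold 3.53, −log10 q 6.90) and the CTR peak (chr14:24161243-24161618; fold 3.23, −log10 q 4.77) overlapped by only 69 bp, in a window shared with RNF31. STAT2 had a BPP peak across its start (chr12:56360024-56360481; fold 4.03, −log10 q 5.16), in a window shared with APOF, and the nearest CTR peak was 25.2 kb from the gene.

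IRF3, activated by the sensing pathways to induce interferon genes, had its BPP peak at the edge of the window (chr19:49666799-49667439; fold 2.87, −log10 q 5.74). IRF2 had a CTR gene-end peak (chr4:184474730-184475600; fold 2.98, −log10 q 5.76). The main signal of this gene was nevertheless inside it and in both lists. A BPP peak at chr4:184472357-184472969 (fold 5.17, −log10 q 18.5) overlapped a CTR peak at chr4:184472373-184473104 (fold 5.18, −log10 q 22.3). A second overlapping pair lay at chr4:184448822-184449479 in BPP (fold 4.11, −log10 q 16.5) and chr4:184448815-184449685 in CTR (fold 4.45, −log10 q 17.6). IRF1, which drives the class I genes after interferon gamma, had no peak over it; the nearest BPP peak was 5.22 kb and the nearest CTR peak 54.9 kb away. IRF7, a factor that amplifies type I interferon induction, was 2.27 kb from a BPP peak and 9.17 kb from a CTR peak.

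By gene-end peaks, antigen presentation had the highest share of the 5 roles in CTR; over gene spans, receptors and kinases did, with 6 of 7 (85.7%) against 8 of 11 (72.7%). Of 11 genes, 7 had gene-end peaks in both lists (HLA-C, HLA-E, B2M, TAP1, TAP2, TAPBP and CD274), HLA-B in CTR only, and HLA-F, NLRC5 and CIITA in neither. This was 63.6% of the group in BPP (35.4 to 84.8) and 72.7% in CTR (43.4 to 90.3), next to 30.6% and 31.2% of all protein-coding genes. No member of this group was marked in BPP only (interval up to 25.9%), next to 7.03% of all protein-coding genes.

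B2M, the light chain of every MHC class I molecule, had the BPP gene-end peak with the highest −log10 q among the 48 genes. That peak (chr15:44711226-44712107; fold 6.82, −log10 q 23) was in the top 6.06% of the BPP list, and the CTR peak inside it (chr15:44711291-44712107; fold 4.87, −log10 q 9.80) in the top 31.3% of the CTR list. The window is shared with PATL2. TAP1 and TAP2 encode the transporter that moves peptides into the endoplasmic reticulum. The TAP1 peaks (BPP chr6:32853558-32854390, fold 5.60, −log10 q 13.04; CTR chr6:32853364-32854075, fold 7.48, −log10 q 17.9) both covered the TAP1 start, in a window shared with PSMB9, an immunoproteasome subunit gene. The TAP2 CTR peak (chr6:32838165-32838905; fold 8.14, −log10 q 21.3) lay wholly within its BPP peak (chr6:32837854-32839091; fold 5.62, −log10 q 11.6). TAPBP, the tapasin gene, had overlapping peaks at its start (BPP chr6:33313041-33314106, fold 3.93, −log10 q 13.5; CTR chr6:33313418-33314287, fold 4.35, −log10 q 13.9), in a window shared with ZBTB22. On its far side TAPBP had 2 further BPP peaks and 1 CTR peak, and the BPP peak at chr6:33299535-33300058 (fold 3.58, −log10 q 13.2) was not overlapped by CTR.

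Upstream sequences of B2M, TAP1 and TAP2 are shown because these peptide-loading genes had gene-end peaks in both lists and ISRE-type matches. The matches, again in capitals, lie in the 150 bases before the start. The sequences lie at chr15:44711367-44711516 (B2M, plus strand), chr6:32853705-32853854 (TAP1, minus strand) and chr6:32838740-32838889 (TAP2, minus strand).
B2M: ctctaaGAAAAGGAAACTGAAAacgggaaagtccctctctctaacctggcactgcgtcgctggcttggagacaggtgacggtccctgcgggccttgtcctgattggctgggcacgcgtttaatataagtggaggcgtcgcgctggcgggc
TAP1: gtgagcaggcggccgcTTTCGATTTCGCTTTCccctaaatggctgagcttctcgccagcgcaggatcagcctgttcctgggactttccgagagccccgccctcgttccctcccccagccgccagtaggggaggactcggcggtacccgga
TAP2: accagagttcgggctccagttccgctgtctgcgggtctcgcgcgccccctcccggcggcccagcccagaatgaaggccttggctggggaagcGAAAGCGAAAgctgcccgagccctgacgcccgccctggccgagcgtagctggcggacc
In B2M and TAP1 the capitals hold 2 overlapping matches each, which begin at -144 and -134 from the start, and in TAP2 a single match begins at -58. B2M and TAP1 also matched the kappa B site searched (GGGACT followed directly by TTCC, either strand), as did IFNGR2, and that site occurred in 0.240% of promoters of protein-coding genes.

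The classical and non-classical class I heavy chains were unevenly marked. These genes are highly variable between people and similar to each other, so the placement of reads is uncertain. HLA-C had a BPP peak (chr6:31271123-31271765; fold 5.5, −log10 q 17.5) inside a wider CTR peak (chr6:31271052-31272455; fold 5.17, −log10 q 12.6). HLA-B had a CTR peak (chr6:31356441-31356924; fold 4.42, −log10 q 5.31) and the nearest BPP peak was 32.3 kb from the gene. HLA-E, which presents leader peptides to natural killer cells, had peaks of −log10 q 6.29 in BPP (chr6:30489755-30490394; fold 4.21) and 4.79 in CTR (chr6:30490241-30490564; fold 4.27). HLA-F had none, at 13.9 kb from the nearest BPP peak and 169.2 kb from the nearest CTR peak. CD274, which encodes the T cell checkpoint ligand PD-L1, had a CTR peak across its start (chr9:5450211-5450716; fold 7.23, −log10 q 11.5, top 24.2% of its list). Its BPP peak (chr9:5450171-5450512; fold 4.37, −log10 q 3.78) was in the top 93.8% of the BPP list, that is, near its lower end.

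NLRC5 and CIITA, the transactivators of the class I and class II genes, had no gene-end peak. NLRC5 had 2 peaks inside the gene in BPP and none in CTR. The stronger (chr16:57061089-57061625; fold 6.18, −log10 q 15.3) was 74589 bp from the nearest CTR peak. The other (chr16:56999516-57000729; fold 3.57, −log10 q 7.70) was 13016 bp from a CTR peak. CIITA was 122.0 kb from the nearest peak of each list.

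Nucleic acid sensing genes were marked in 3 of 8 in each list (37.5%, 13.7 to 69.4). This lay near the share of all protein-coding genes, 30.6% in BPP and 31.2% in CTR. TBK1, the kinase that phosphorylates IRF3, and ADAR, which edits adenosines in double-stranded RNA, had peaks in both, IFIH1 in BPP only, TRIM25 in CTR only, and RIGI, MAVS, STING1 and CGAS in neither. By gene-end −log10 q, IFIH1 was highest of these in BPP (7.45) and ADAR in CTR (13.1). Just inside the outer start of ADAR lay a CTR peak (chr1:154627045-154627882; fold 5.97, −log10 q 13.1) and a BPP peak (chr1:154627025-154627376; fold 3.94, −log10 q 6.67). Near an inner start of ADAR both lists had a stronger peak, at chr1:154607556-154608220 in CTR (fold 4.53, −log10 q 21.3) and chr1:154607269-154607949 in BPP (fold 3.99, −log10 q 19.03). The TBK1 peaks were weak, with a −log10 q of 2.97 in BPP (chr12:64452535-64452905; fold 3.02) and 6.59 in CTR (chr12:64452458-64453040; fold 3.93).

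IFIH1, the sensor MDA5, had a BPP peak just before its start (chr2:162318812-162319313; fold 5.88, −log10 q 7.45) in a window shared with GCA, and the nearest CTR peak was 915.2 kb from the gene. TRIM25, a ubiquitin ligase that acts on the RIG-I pathway, had a CTR peak at its start (chr17:56913478-56914310; fold 4.05, −log10 q 8.96), and the nearest BPP peak was 77.9 kb from the gene. RIGI lay 12.5 kb from a BPP peak and 40.2 kb from a CTR peak. For MAVS, the mitochondrial adaptor of RNA sensing, both distances were 12.7 kb, and for STING1, the adaptor of DNA sensing, 21.3 and 23.02 kb. CGAS, the DNA sensor, was 9.47 and 9.52 kb from H3K27ac peaks and 2.21 kb from an IgG peak.

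Start sites could be examined for the 36 genes in the promoter table; CGAS, CIITA, HLA-E, IFIT2, IFNAR2, IRF2, IRF3, IRF7, NLRC5, OAS2, OASL and STING1 had no entry. A BPP peak lay within 1 kb of a listed start for 20 genes (55.6%, 39.6 to 70.5). For CTR the number was 19 (52.8%, 37.01 to 68.01), and 16 genes had both (44.4%, 29.5 to 60.4). Among the 15812 protein-coding genes with an entry the shares were 32.3%, 33.9% and 25.9%. Without the inner ADAR peaks, summits were mostly downstream of the outermost start, in 18 of 19 CTR peaks and 14 of 21 BPP peaks. Over all of these peaks, those with a summit before the start included, the median summit position was 209 bp downstream in CTR and 182 bp in BPP. The ISG15 BPP summit, 1346 bp downstream, lay beyond the end of that gene. The BPP summits before the start were those of TYK2, STAT3, IRF9, TAP1, CD274 and IFIH1 and the outer IFIT5 peak. STAT3, IRF9, TAP1, CD274 and IFIT5 also had CTR peaks, each with its summit inside the gene.

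**Figure D3:**
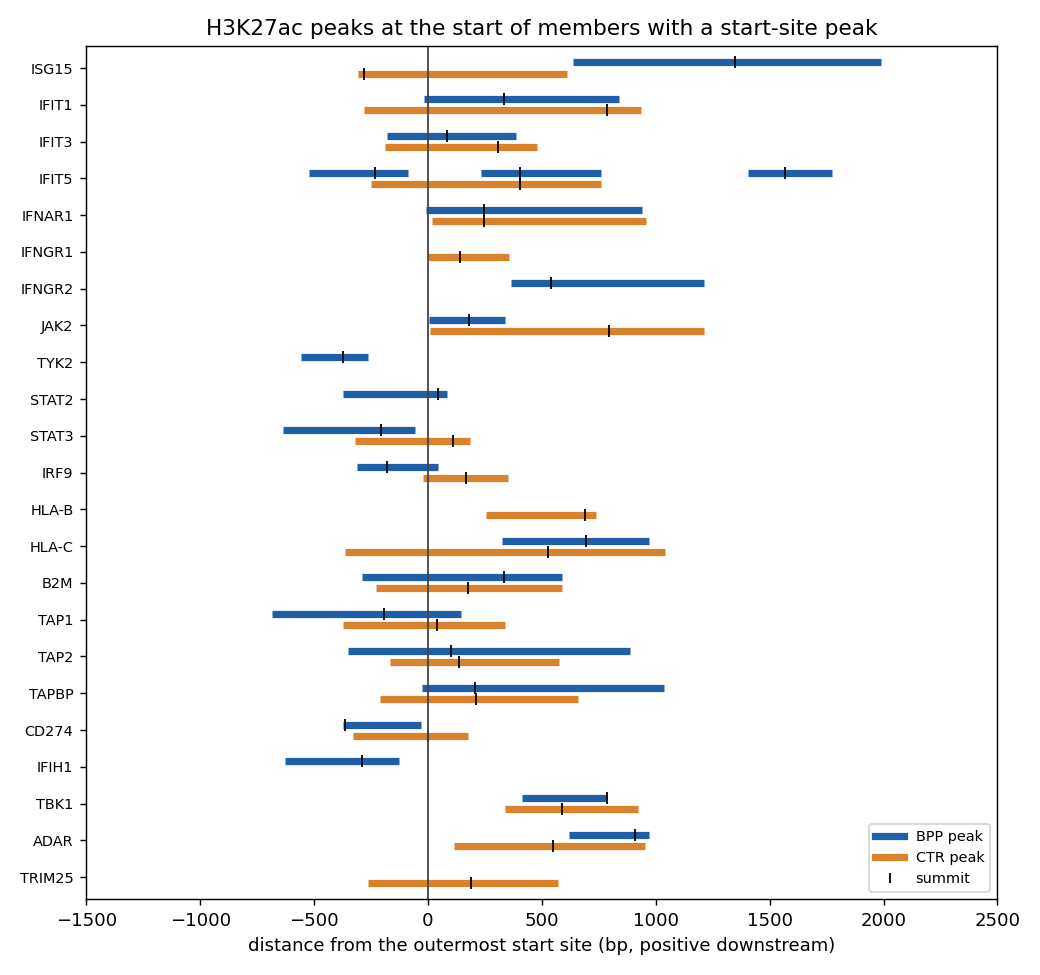
Bars show the extent of BPP (blue) and CTR (orange) peaks around the outermost listed start (distance in bp, positive downstream), with summits as ticks, for the 23 genes with a start-site peak in either list. At IFNAR1 the summits coincide 245 bp inside the gene, whereas at ISG15 the BPP and CTR bars do not overlap.

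The promoter window, 250 bases before to 50 after the start, was searched for sequence elements. Sequence was not used to choose the genes, but many of them are interferon-stimulated genes, a class known for the ISRE. The share with an ISRE-type match is therefore not independent of that choice. ISRE-type matches (any listed start, both strands) occurred in 17 of the 36 genes (47.2%, 32.0 to 63.0) and in 4.16% of the 15812 protein-coding genes. They were found in 10 of 12 effectors and 6 of 8 antigen presentation genes. Of the sensing genes 1 of 6, IFIH1, had a match, and none of the 6 receptor and kinase or 4 transcription factor genes did. The letters TTC, any 3 bases, GAA, the form of STAT binding sites, matched in 9 of 36 (25%; 8.97% of all). The Y-box letters CCAAT matched in 17 (47.2%; 42.1%) and TGACG, part of the X2 box of MHC promoters, in 14 (38.9%; 34.5%). Matches are descriptions of letters and not measured binding.

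H3K27ac at the start was listed for genes with and without an ISRE-type match. Of the 17 genes with a match, 10 had a start-site peak in at least 1 H3K27ac list (58.8%, 36.01 to 78.4), and of the 19 without, 13 (68.4%, 46.01 to 84.6). Counting only peaks in both lists, the order was the other way, with 9 of 17 (52.9%, 30.96 to 73.8) and 7 of 19 (36.8%, 19.1 to 58.96). In all protein-coding genes the shares with a peak in at least 1 list were 38.9% with a match and 40.4% without, and in both lists 26.9% and 25.8%. CpG-rich windows, here those with a GC content over 50% and a CpG ratio (observed over expected CpG) over 0.6, made up 63.9% of the 36 genes and 63.0% of all genes with an entry. Start-site peaks in at least 1 list were found at 16 of the 23 CpG-rich genes (69.6%, 49.1 to 84.4) and 7 of the other 13 (53.8%, 29.1 to 76.8). The 7 genes were IFIT1, IFIT3, IFIT5, JAK2, IRF9, TAPBP and ADAR, and all 7 had start-site peaks in both lists (53.8%), against 9 of the 23 CpG-rich genes (39.1%, 22.2 to 59.2). Across protein-coding genes, CpG-rich and other, the shares were 52.5% and 19.7% in at least 1 list and 34.04% and 11.97% in both. Only 3 of 12 effectors with an entry were CpG-rich (ISG15, MX1 and OAS3), and ISG15 was the one with a peak.

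**Figure D4:**
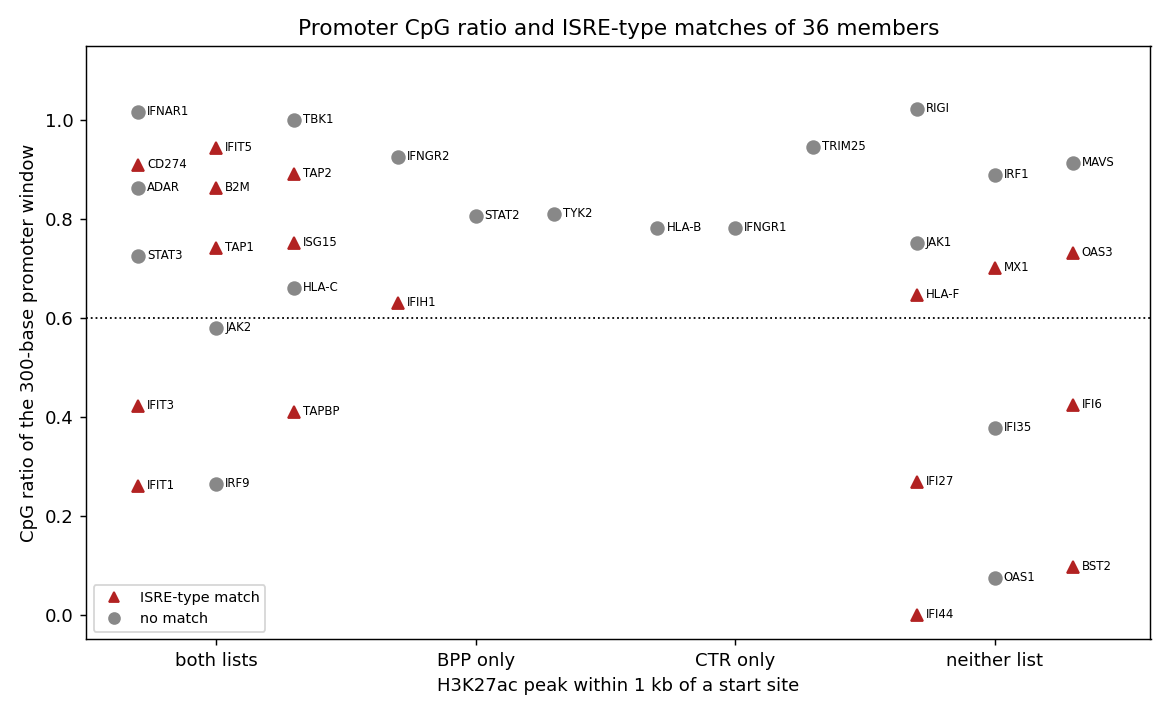
Each symbol is 1 of the 36 genes, by the list in which a peak lay within 1 kb of a start (horizontal) and the CpG ratio of its promoter window (vertical, dotted line at 0.6); triangles have an ISRE-type match. Triangles stand at both sides, 9 among genes marked in both lists and 7 among those marked in neither.

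A wider list of 70 further genes of the same pathways was read in the same way. Gene-end peaks were listed for 29 in BPP (41.4%, 30.6 to 53.1) and 30 in CTR (42.9%, 31.9 to 54.5). Of the 70, 25 were marked in both lists, 4 in BPP only, 5 in CTR only and 36 in neither, where all genes gave 23.6%, 7.03%, 7.57% and 61.8%. Marked in both with the highest values were NFYC, a subunit of the factor that binds CCAAT boxes (−log10 q 24.6 in BPP and 17.2 in CTR), and TRIM56, an antiviral ubiquitin ligase (18.4 and 15.3). In BPP only were TRAF3, an adaptor of interferon induction (chr14:102775785-102776934; fold 5.38, −log10 q 14.9), TICAM1 (fold 3.56), TRIM21 (fold 5.14) and IFITM1 (fold 2.58). In CTR only were CREB1 (fold 5.58), CALR (fold 4.35), SOCS1, an inhibitor of JAK kinases (chr16:11256359-11256710; fold 5.00, −log10 q 6.92), and GBP2 (fold 4.35), besides GBP1. IFITM3, named after its value was seen, was the one gene of this list with an IgG peak at a gene end (fold 3.95). It was marked in both H3K27ac lists, with −log10 q of 24.05 in BPP and 13.7 in CTR. Unmarked genes included the class II genes HLA-DRA, HLA-DPA1, HLA-DPB1 and CD74, the interferon genes IFNB1 and IFNL1 and the effectors MX2, RSAD2, XAF1 and USP18.

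On chromosomes 1 to 22 and X the lists held 17841 BPP, 14836 CTR and 7701 IgG peaks. Of 10 epithelial and ovarian carcinoma markers, the keratin genes KRT8 and KRT18 had gene-end peaks in both H3K27ac lists (20%). The other 8, among them EPCAM, CDH1 and MUC16, had them in neither. The strongest KRT8 peaks did not overlap, at chr12:52896256-52896630 in BPP and chr12:52949527-52949878 in CTR. Of 10 leukocyte markers only CD68 had gene-end peaks, in both lists (10%), and PTPRC, CD3E and CD14 had none. Across all protein-coding genes 23.6% were marked in both lists.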

How the data were processed

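H3K27ac and IgG CUT&Tag peaks of 3 A2780 libraries, grouped by sample title, were analysed. The tools named, per the submitters' processing notes, are Bowtie2 2.4.1, deepTools 3.3.0 and fastp, with build GRCh38.p13 (hg38). Which caller made the peaks, with what settings, and whether IgG served as its control is not given in the sources used here. Each library has its own deposited peak list. The deposited score equals −log10 p multiplied by 10 with decimals dropped. The deposited fold is a ratio over an unstated background, and the deposited −log10 p-values and −log10 q-values are the peak caller's. No −log10 p lay below 5. An unlisted peak may be under that threshold. Read numbers were not given, so depth is unknown and a deeper library can list more peaks.

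Peaks outside chromosomes 1 to 22 and X were dropped (28 BPP, 37 CTR and 14 IgG peaks), and the others were intersected from 1 bp with windows of 1 kb around both ends of each RefSeq gene (GRCh38.p14, same chromosome coordinates as p13) and with gene spans. Coordinates are counted from 1. The window also reaches neighbouring genes, which are named. Start sites and sequences came from a RefSeq promoter table, with starts within 1 kb of a peak counted. Shares carry 95% Wilson intervals for counting error. Full values were given to genes marked in 1 H3K27ac list only, the 8 with the highest −log10 q per list, those with IgG peaks and those whose peaks did not overlap. From the wider list the text takes up to 4 genes marked in 1 list only, by −log10 q, and the 2 with the highest lower value of both lists. The genes and lists were chosen with earlier results of these data known. Alternatives changed the window, the peak filter, the overlap and the use of start sites. Versions were Python 3.11.15, pandas 2.3.3, numpy 2.4.6, matplotlib 3.10.9 and scipy 1.17.1. The interval code was tested on simulated data, with bedtools 2.31.1 as comparison.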

Additional observations from a re-analysis of the deposited data

How the results depend on the processing

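With 1 library per group and unknown depth, these counts describe the lists. Of 79 counts under alternatives, 57 stayed within 1.5 times the main count and 22 did not. Keeping only peaks with a fold of at least 5 left 8 genes with gene-end peaks in BPP, 10 in CTR, 5 in both lists and 3 in BPP alone, and span peaks for 9 in BPP and 12 in CTR; 5 BPP and 5 CTR gene-end peaks overlapped the other list. That filter keeps 5964 BPP and 6012 CTR peaks. With the 5000 peaks of highest −log10 p in each list, the gene-end counts were 8 for BPP, 11 for CTR, 8 for both lists, 0 for BPP alone and 3 for CTR alone, the span counts 11 and 12, and 8 peaks of each list were overlapped. With start sites only, which 36 genes have, 3 genes were marked in CTR only. Leaving out peaks in the window of another gene, an alternative added after seeing the data, left 3 genes marked in BPP only. With −log10 q of 5 or more, 1 gene had an IgG span peak. Gene-end peaks under that filter were listed for 22 genes in BPP, 20 in CTR and 13 in both lists. It left 9 genes marked in BPP alone and 7 in CTR alone. Requiring overlap of 50% of both peaks left 11 BPP and 11 CTR peaks overlapped. Fewer peaks, genes or overlaps enter by construction in each of these, though a count for 1 list alone can rise. Apart from start sites, the share of all protein-coding genes was not counted under these alternatives, so these counts stand without a background. No gene-end IgG peak appeared under any setting run. No paired analysis was possible because each group had 1 library.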
